A study of Cyanidioschyzon merolae with 8 samples.

Results

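A set of 148 nuclear genes of the unicellular red alga Cyanidioschyzon merolae was examined whose transcripts were present in dark-kept cells and lower after 30 min of blue light and after 30 min of red light. The members were chosen by their values. Each had at least 20 FPKM (mapped fragments per unit of transcript length and of library size) in both dark controls, a value above 0 under both lights, and a level at least 2.38-fold lower than in its own dark control under both lights. The rule keeps 148 of 4793 nuclear IDs, out of 5091 gene IDs in all. Because the values of all 4 conditions entered the choice, the levels and ratios of these genes are given as a description, with no test of the set.

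All libraries came from wild-type cells of strain 10D, grown at pH 2.3 and 42 °C under 100 µmol m-2 s-1 of continuous light. In the blue light experiment, 2 libraries came from cells kept dark for 36 h, and 2 from such cells given 15 µmol m-2 s-1 of blue light over 30 min. In the red light experiment, 2 libraries came from dark-kept cells and 2 from dark-kept cells after red light for 30 min. For this experiment the labels state neither the intensity of the light nor the length of the dark period. The labels give the wavelength of the light meter as 365 nm for blue light and 630 nm for red light. The table holds 1 FPKM value per condition with the replicates already combined, so no SD can be given, and the only tests are the q-values of the authors. FPKM is a share of the sequenced fragments, so less of a transcript and more of all other transcripts cannot be told apart. The number of cells and the total RNA per cell cannot be read from it.

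Cyanidioschyzon merolae lives in hot acidic springs and has a compact nuclear genome in which most genes have no intron. Light drives its photosynthesis through chlorophyll and the blue-coloured phycobiliproteins, whereas cells kept dark live on stored carbon. The level of a transcript falls when its decay outruns its synthesis, and a level alone does not separate these processes. All 148 genes matched protein-coding genes of the RefSeq annotation (assembly ASM9120v1) by locus tag. The tables used here give no product or function for them, so the genes are named by ID.

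In the authors' deposited table, 140 of the 148 genes fell under blue light at a q-value under 0.05, where 18.9% of all nuclear genes tested did. Under red light, 143 of the 148 fell, beside 27.2% of all nuclear genes tested. Under both lights 137 fell, beside 11.7%. With q under 0.01 the counts were 134 under blue light (all nuclear genes, 11.6%), 135 under red light (18.7%) and 126 under both (6.26%). The rule used these contrasts, so nothing is read from the differences. All 148 had been tested under both lights. The q-value could not rank most of them, since 101 genes under blue light and 97 under red light had the lowest p-value in the table, 5e-05. The median log2 ratio of 4346 nuclear genes tested under both lights was -0.03 under blue and -0.26 under red light, and with both ratios centred on these medians the rule would keep 92 genes.

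Most members were abundant in the dark. Their median was 238 FPKM in the blue-experiment dark control and 356 FPKM in the red-experiment dark control, against 109.9 and 125 FPKM for all nuclear genes tested. These medians stand at percentiles 78.7 and 88.8 of the nuclear genes. The range was wide, from 32.4 to 5066 FPKM in the first dark control and from 33.5 to 13104 FPKM in the second. The description as high in the dark holds for 114 of the 148 genes, which stood above the nuclear median in both dark controls. It does not hold for 13 genes, which stood below it in both and are low in the dark relative to other genes, though higher there than in the light. The rule asks for at least 20 FPKM in both dark controls and divides by these values, so the choice itself favours high dark levels. Of all nuclear genes tested, 4.60% were under 20 FPKM in the blue-experiment dark control and 4.07% in the red-experiment dark control.

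The levels after the light were lower. Their median was 52.4 FPKM under blue light, at percentile 16.6 of the nuclear genes, and 106 FPKM under red light, at percentile 48.9. Above the nuclear median stood 31 members under blue light and 72 under red light. Under blue light 28 members were below 20 FPKM, against 7 under red light. Of all nuclear genes tested, 1.36% were below it under blue light and 2.09% under red light. Members held 6.67% of the summed nuclear FPKM in the blue-experiment dark control and 1.33% under blue light. In the red experiment they held 11.3% in the dark and 3.40% in the light, or 9.94% and 3.03% without the most abundant one, CMO184C.

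**Figure D1:**
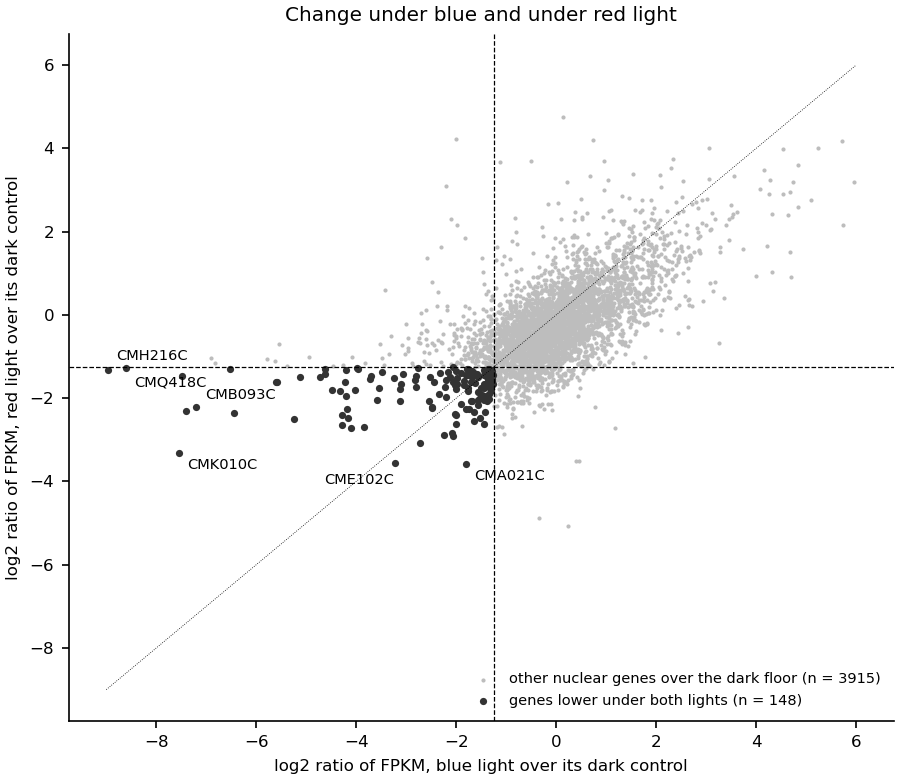
Log2 ratio of FPKM under blue light (horizontal axis) and under red light (vertical axis) for 4063 nuclear genes with at least 20 FPKM in both dark controls and a value above 0 in both lights; each point is a gene, dashed lines mark the bounds of the rule, 2.38-fold lower, and the dotted line marks equal ratios. The 148 genes of the rule reach down to -8.97 under blue light and to -3.57 under red light.

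The falls were shaped differently under the lights. Under blue light they ran from 2.39-fold to 502-fold, with a median of 3.59-fold, and under red light from 2.39-fold to 11.9-fold, with a median of 3.15-fold. A fall of at least 8-fold was seen in 40 members under blue light and in 4 under red light. Among all 4063 nuclear genes over the dark floor, 1.48% were lower by at least 8-fold under blue light and 0.197% under red light, and by at least 4-fold 3.4% and 2.02%. Of the 40 members with such a change under blue light, 26 changed under 4-fold under red light, 12 between 4-fold and 8-fold, and 2 by at least 8-fold. Those 2 were CMK010C and CME102C. In 64 members the change was under 4-fold under both lights. Across the 148 genes the ratios under the lights had a Spearman rho of 0.15. The points share the 4 conditions, and the bounds of the rule narrow both ranges.

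The steepest losses under both lights, ranked by the weaker fall of the pair, begin with CMK010C, on chromosome 11 at positions 24881 to 26285. CMK010C stood at 1529 FPKM in its dark control and 8.21 FPKM after blue light, then at 2439 FPKM in the other dark control and 246 FPKM after red light. It is a gene of very high dark level that kept 0.537% of that level under blue light and 10.1% under red light. CME102C, on chromosome 5 at 285092 to 286136, gave 424 and 45.2 FPKM in the blue experiment and 1146 and 96.5 FPKM in the red one. Its losses were close to each other, 9.37-fold under blue and 11.9-fold under red light. CMQ328C, on chromosome 17 at 840707 to 842759, had 896 and 52.2 FPKM in the blue experiment and 1803 and 272 FPKM in the red one. CMR409C, on chromosome 18 at 998391 to 1000370, had 223 and 33.7 FPKM and then 334 and 39.9 FPKM. In CMR409C the 2 lit levels lay close together, and its log2 ratios were -2.73 under blue and -3.07 under red light. All 4 of these genes have q = 0.00045 under both lights in the authors' deposited table.

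The next 6 of that ranking had the larger loss under blue light. CME096C, on chromosome 5 at 270675 to 272742, had 458 and 32.1 FPKM in the blue experiment and 540 and 83.6 FPKM in the red one. CMR500C, on chromosome 18 at 1232430 to 1236284, had 168 and 8.56 FPKM, then 278 and 44.1 FPKM. Each kept less of its dark level under blue than under red light. CMN082C, on chromosome 14 at 206203 to 209125, was at 325 FPKM dark and 8.57 FPKM after blue light, and at 912 FPKM dark and 161 FPKM after red light. CMT073C, on chromosome 20 at 186167 to 188920, was at 105 and 5.83 FPKM and at 215 and 38.9 FPKM. It starts from the lowest dark level of these 10 genes. CMR380C, on chromosome 18 at 913900 to 917337, was at 335 and 17.3 FPKM and at 569 and 107 FPKM. CMS128C, on chromosome 19 at 330382 to 333043, was at 356 and 4.09 FPKM and at 342 and 67.2 FPKM. The dark controls of CMS128C were nearly level, whereas its lit levels differed 16.4-fold. All 6 have q = 0.00045 under both lights in the authors' deposited table.

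**Figure D2:**
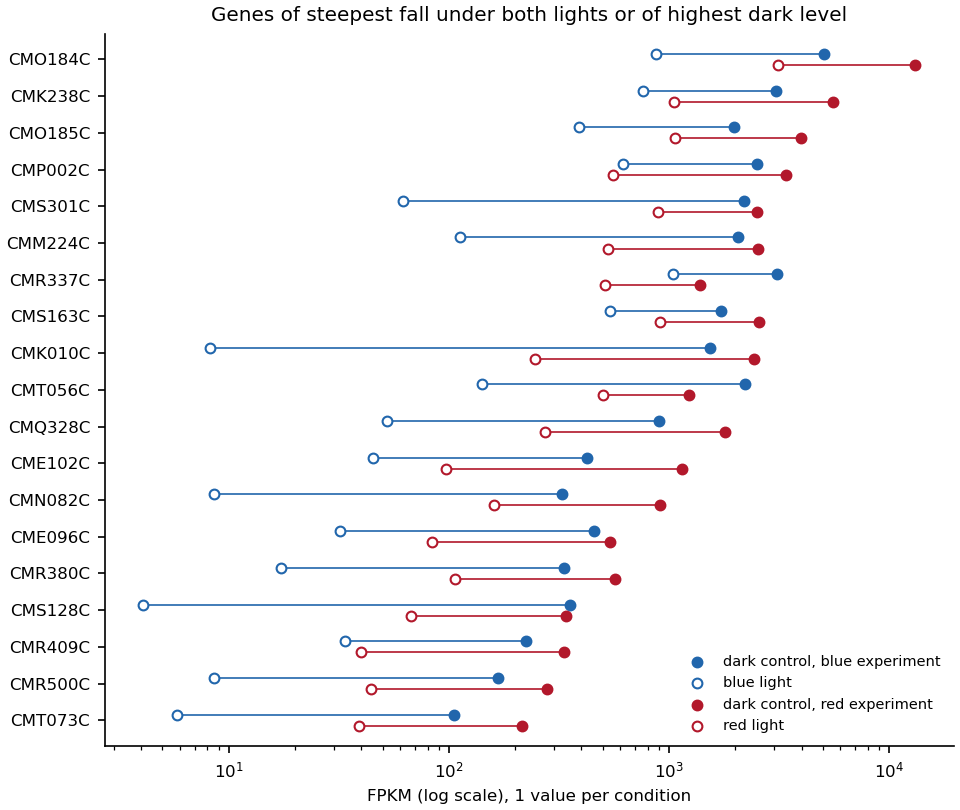
FPKM on a log axis for the 10 members with the largest weaker fall and the 10 members with the highest mean dark level, 19 genes in all since CMK010C is in both; filled points are dark controls, open points lit cells, blue the blue experiment and red the red experiment, with 1 value per condition. In each gene the open point lies to the left of the filled point, and the blue line is the longer of the pair in most genes, CMP002C, CMK238C, CME102C and CMR409C being the exceptions.

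Of the members with the highest mean dark level, CMO184C leads, on chromosome 15 at 460968 to 462495. It stood at 5066 FPKM dark and 871 FPKM after blue light, and at 13104 FPKM dark and 3130 FPKM after red light. Its q-values in the authors' deposited table were 0.1 and 0.158, so it did not pass the threshold under either light despite its abundance. CMO185C, the next gene along the chromosome at 462835 to 464427, had 1975 and 390 FPKM and then 3963 and 1067 FPKM. Its q-value was 0.00175 under blue light and 0.0646 under red light in the authors' deposited table. The neighbours CMO184C and CMO185C thus share high dark levels, log2 ratios of -2.54 and -2.34 under blue light and of -2.07 and -1.89 under red light.

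CMK238C, on chromosome 11 at 656636 to 657280, has the shortest locus of the 10 members with the highest mean dark level, 645 bp. It had 3062 and 761 FPKM in the blue experiment and 5550.2 and 1049.8 FPKM in the red one. In the authors' deposited table its q was 0.00045 for each light. CMP002C, on chromosome 16 at 4034 to 6323, is the first listed locus of that chromosome. It had 2502 and 620 FPKM in the blue experiment and 3405 and 554 FPKM in the red one. CMP002C fell under blue light with q = 0.0158 in the authors' deposited table, but its q under red light was 0.433. CMS301C, on chromosome 19 at 775168 to 776485, had nearly level dark controls of 2183 and 2509 FPKM. Its lit levels were 62.2 FPKM under blue and 889 FPKM under red light, which is 14.3 times as high. CMM224C, on chromosome 13 at 554665 to 557092, had 2059.6 and 2542 FPKM in the dark and 113 and 529.9 FPKM in the light.

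CMR337C, on chromosome 18 at 818192 to 820397, was lower in the red experiment than in the blue one. It was at 3101 FPKM dark and 1038 FPKM after blue light, and at 1382 and 512 FPKM in the red experiment. Its q-value was 0.28 under blue and 0.0289 under red light in the authors' deposited table. CMS163C, on chromosome 19 at 432585 to 433458, had 1724 and 537 FPKM, then 2562 and 911 FPKM, with similar losses of 3.21-fold and 2.81-fold. CMT056C, on chromosome 20 at 146499 to 148322, had 2205 and 141 FPKM, then 1226 and 500.4 FPKM. Both CMS163C and CMT056C fell under each light, the largest q among the 4 values being 0.0302 in the authors' deposited table. Under red light CMO184C, CMO185C and CMK238C were still at 1000 FPKM or more, and under blue light CMR337C alone among the members was.

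The lights were then compared within the set. The larger loss was under blue light in 84 members and under red light in 64, or in 104 and 44 after centring on the nuclear medians. The ratios lay within 0.5 log2 units of each other in 79 members and at least 1 unit apart in 46. Of those 46, 44 had the larger loss under blue light. These differences have no test, since each condition has 1 value, and the intensities of the lights were not shown to be equal. The same counts were not made over all nuclear genes. Of those over the dark floor, 1.48% were lower by at least 8-fold under blue light and 0.197% under red light. The rule used both ratios with the same bound, so nothing about the set is read from these counts.

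The widest gaps on the blue side were those of CMH216C, CMQ418C, CMG099C and CMC074C. CMH216C, on chromosome 8 at 556712 to 558599, was at 281 FPKM dark and 0.558 FPKM after blue light, and at 461 FPKM dark and 183 FPKM after red light. CMQ418C, on chromosome 17 at 1082338 to 1084225, was at 279 and 0.711 FPKM and at 381 and 157 FPKM. Their ratios of 502-fold and 392-fold under blue light are the largest of the set, yet their q-values were 0.31 and 0.255 in the authors' deposited table, and neither passed. CMG099C, on chromosome 7 at 254111 to 255554, had 420 and 2.35 FPKM and then 629 and 227 FPKM. CMC074C, on chromosome 3 at 173643 to 175529, had 446 and 4.85 FPKM and then 536 and 218 FPKM. CMG099C fell under blue light with q = 0.0337 and CMC074C with q = 0.00045 in the authors' deposited table. All 4 kept between 36.1% and 41.1% of their dark level under red light.

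CMH216C, CMQ418C and CMC074C have the same gene length in RefSeq, 1887 bp, which was looked up after their values were seen. It is the length of 8 nuclear IDs in the table, and 6 of them had similar dark levels and lower values under both lights. Besides the 3 members these are CML157C, CML324C and CMM108C. In the blue-experiment dark control the 6 ranged from 225 to 446 FPKM, and under red light from 151 to 218 FPKM. Under blue light they ranged from 0.558 to 191 FPKM, a spread of 341-fold. CML157C was at 112 FPKM and CML324C at 191 FPKM there, against 1.99 FPKM in CMM108C. Summed over the 6 IDs, FPKM went from 1854 to 311 under blue light, 5.97-fold lower. Under red light their sum went from 2574 to 1109, 2.32-fold lower. The 6 were picked for lower values under both lights, so a lower sum follows from that choice. Left out of the sums is CMF056C, of the same length and a similar dark level. It was at 437 and 679 FPKM in the blue experiment and 400 and 331 FPKM in the red one. CMT269C, also left out, was at 2.42 and 3.38 FPKM and then 0.245 and 1.34 FPKM. Reads of near-identical copies can be split unevenly between them, and whether these IDs are copies was not tested, since no sequences were used here. The single values of CMH216C, CMQ418C and CMC074C under blue light are therefore uncertain.

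On the red side the widest gaps were smaller. CMA021C, on chromosome 1 at 57705 to 60126, had 1068 and 303 FPKM in the blue experiment and 2279 and 192 FPKM in the red one. It has the lowest red ratio of the set, -3.57, beside -1.82 under blue light. CMM233C, on chromosome 13 at 575140 to 578308, had 32.4 and 11.9 FPKM and then 50.2 and 8.18 FPKM, the lowest red light level among the members. CMM326C, on the same chromosome at 834839 to 838630, had 209 and 72.8 FPKM and then 337 and 60.2 FPKM. CML245C, on chromosome 12 at 624102 to 627551, had 938 and 299 FPKM and then 606 and 103 FPKM. All 4 fell under both lights, the largest q being 0.0182 in the authors' deposited table. Their loci span 2422 to 3792 bp, longer than the median member.

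The members were also compared by the size of their change under blue light. The 40 with an 8-fold or larger change had median levels of 422 FPKM dark and 16.5 FPKM after blue light, and of 565 FPKM dark and 159 FPKM after red light. Of these 40, 39 were higher under red than under blue light, with a median difference of 6-fold, and 28 were higher in the red-experiment dark control, where the median difference was 1.22-fold. The exception among the lit cells was CMP358C. The 80 members with changes under 4-fold under blue light had median levels of 197 and 67.4 FPKM in the blue experiment and 299 and 93.0 FPKM in the red one. Among these 80, 56 had the larger loss under red light. Both groups were split on their blue values, so these counts largely follow from the split and nothing is read from them.

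The dark controls were set beside each other, although the time in the dark is stated for the blue experiment alone. Members were higher in the red-experiment dark control in 119 of 148 cases, against 59% of the nuclear genes over the dark floor. The median log2 difference was 0.60 for members and 0.18 for those nuclear genes. Across the 148 genes, log2 FPKM in the dark controls correlated with a Pearson r of 0.87, beside 0.78 for all 4063 nuclear genes over the floor. Whether the experiments were scaled together was not given in the sources used here. Both dark values entered the ratios of the rule, so the choice of members can itself shift these differences. No test could be made of these values.

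The members furthest apart in the dark were found on both sides. CMA042C, on chromosome 1 at 120761 to 122077, was at 156 FPKM in the blue and 752 FPKM in the red dark control, with 37.0 and 105 FPKM in the light. CMT283C, on chromosome 20 at 717890 to 719104, was at 68.6 and 203 FPKM in the dark and 17.2 and 71.2 FPKM in the light. CMM037C, which shares the locus at 77281 to 79352 on chromosome 13 with CMM036C, was at 284 and 807 FPKM and at 108 and 307 FPKM. CMS480C, on chromosome 19 at 1206013 to 1207510, was at 235 and 663 FPKM and at 50.97 and 170 FPKM. In these 4 genes the lit levels were also higher in the red experiment. CMT283C and CMM037C are also the only members whose red light level exceeded their dark level in the blue experiment. In the other 146 members the lowest dark value stood above the highest lit value, which holds for 35.3% of nuclear genes over the floor and is largely set by the rule.

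On the other side, CMP358C, the last listed locus of chromosome 16 at 902164 to 904479, was at 342 FPKM in the blue and 33.5 FPKM in the red dark control. Its lit levels were 15.4 and 9.62 FPKM. CMB093C, on chromosome 2 at 264337 to 268561, was at 290 and 67.2 FPKM in the dark and 1.97 and 14.5 FPKM in the light. CMM184C, on chromosome 13 at 455177 to 456457, was at 228 and 94.0 FPKM in the dark and 17.3 and 32.0 FPKM in the light. CMB093C and CMM184C were thus lower in the red experiment when dark and higher there when lit, while CMP358C and CMR337C were lower there in both states. CMP358C, CMB093C and CMM184C fell under both lights in the authors' deposited table, the largest q being 0.000817.

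**Figure D3:**
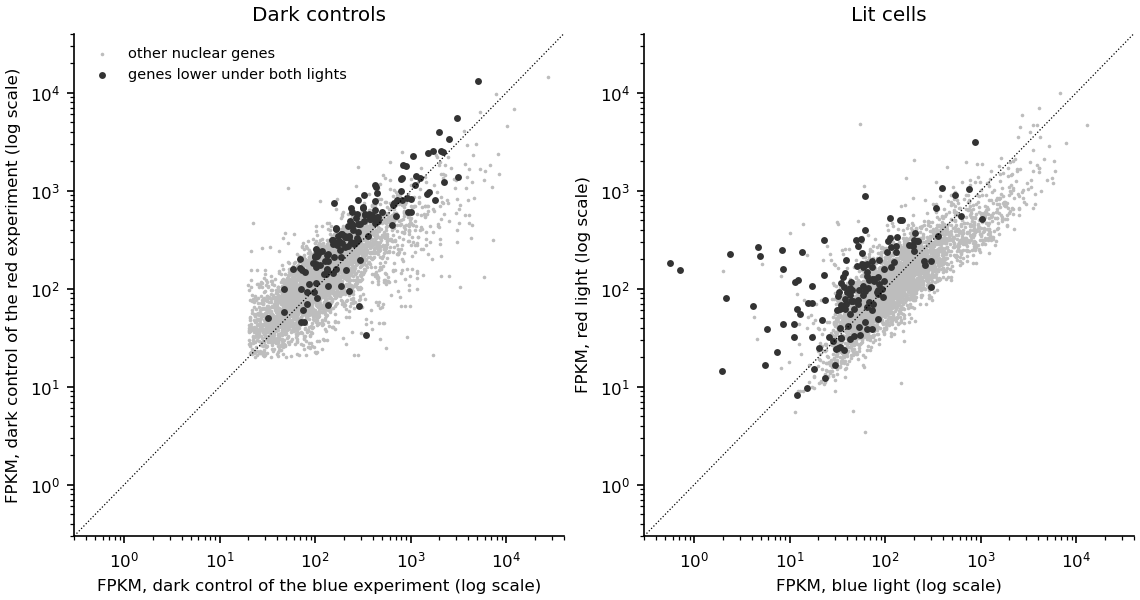
FPKM in the red experiment against FPKM in the blue experiment, both on log axes, for the dark controls (left) and the lit cells (right); black points are the 148 members, grey points the other nuclear genes over the dark floor, and the dotted line marks equal values. In both panels 119 of the 148 members lie above the line, and their scatter is wider in the light, where blue values reach down to 0.558 FPKM.

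Among members, the lit conditions differed more than the dark controls did. Members were higher under red than under blue light in 119 of 148 cases, beside 43.3% of the nuclear genes over the dark floor. The median log2 difference was 0.87 for members and -0.13 for those nuclear genes. The Pearson r of log2 FPKM between the lit conditions was 0.52 across members and 0.80 across the 4063 nuclear genes. Across those nuclear genes it was 0.78 between the dark controls, so the wider difference in the light was not seen there. A set chosen for low lit values can show a weaker relation and a shifted difference by the choice itself. In 106 members the red experiment was higher both dark and lit, a count that was not made over all nuclear genes. At least 2-fold higher levels under red light were seen in 69 members and at least 2-fold lower levels in 2, CML245C and CMR337C. Of the nuclear genes over the dark floor, 7.41% were at least 2-fold higher and 12.7% at least 2-fold lower under red light.

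The members were spread over 19 of the 20 nuclear chromosomes. Chromosome 4 held none among 123 genes over the floor, although 8 of its genes met the bound under blue and 11 under red light. The share was 6.35% on chromosome 9, with 12 members, and 5.63% on chromosome 13, also with 12, beside 3.64% over the nuclear genes. No test of these shares was made.

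Most members had no other member at the next listed locus. Another member was the next listed locus for 23 of the 148 (15.5%), which form 9 runs, and 125 had none at the next locus. Among those 125, CMM036C and CMM037C share 1 locus with each other. Of the tested non-members, 231 lay in the locus next to a member and 3967 did not. Whether members lie next to each other more often than other genes was not tested. The longest run, on chromosome 20 from 181259 to 191529, holds CMT071C, CMT072C, CMT073C and CMT074C. CMT071C had 265 and 85.2 FPKM in the blue experiment and 521 and 199 FPKM in the red one. CMT072C had 273 and 22.6 FPKM and then 577 and 139 FPKM. CMT074C, the least abundant, had 46.8 and 11.2 FPKM and then 98.5 and 32.2 FPKM. The 4 genes, with CMT073C as given above, differ in dark level, but all were higher in the red-experiment dark control, by 1.96-fold to 2.11-fold. Each fell under both lights, the largest q being 0.0125 in the authors' deposited table. CMT069C before it went from 1267 to 336 FPKM under blue light with q = 0.00511 and stood at 252 and 202 FPKM in the red experiment with q = 0.47 in the authors' deposited table. CMT075C after it had log2 ratios of 0.01 and -0.26, with q = 0.991 and 0.469 in the authors' deposited table.

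On chromosome 5, CME100C, CME101C and CME102C follow each other from 278746 to 286136, and CME096C lies 2 listed loci before them. CME100C had 1145 and 132 FPKM in the blue experiment and 1407 and 335 FPKM in the red one. CME101C, with a locus of 3810 bp, had 97.1 and 23.3 FPKM and then 91.9 and 12.2 FPKM. CME101C is the only one of the 3 that was lower in the red experiment both dark and lit. Between them and CME096C lies CME099C, at 29.5 and 14.2 FPKM in the blue experiment and 155 and 76.4 FPKM in the red one. CME099C did not pass under blue light (q = 0.176) and fell under red light (q = 0.0108) in the authors' deposited table, by ratios of -1.06 and -1.02 that miss the rule. CME103C rose from 13.5 to 46.9 FPKM under blue light with q = 0.00045 in the authors' deposited table, and CME095C rose from 38.8 to 139 FPKM under red light with the same q.

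**Figure D4:**
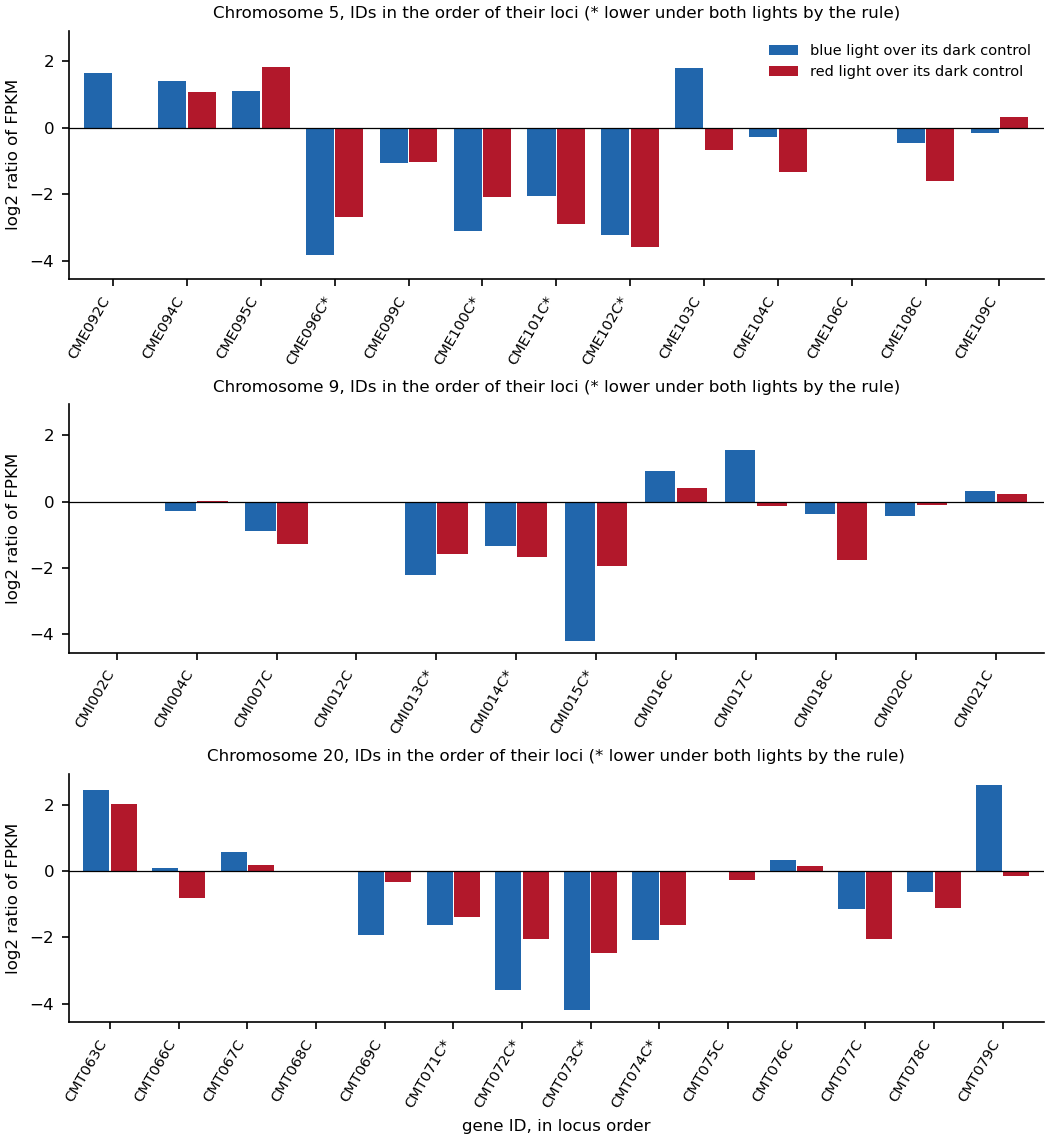
Log2 ratio of FPKM under blue light (blue bars) and red light (red bars) for listed nuclear IDs in the order of their loci around 3 runs of members, on chromosomes 5, 9 and 20; asterisks mark members, and IDs that the authors did not test have no bar. Both bars are low in every member, down to -4.21 for CMI015C under blue light, whereas CME103C just after the first run has a blue ratio of 1.79.

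CMI013C, CMI014C and CMI015C form a run on chromosome 9 from 36112 to 44543. CMI013C had 296 and 64.2 FPKM, then 195 and 65.6 FPKM. CMI014C, whose locus starts 29 bp after the previous one ends, had 137 and 54.3 FPKM, then 107 and 33.6 FPKM. CMI015C had 636 and 34.5 FPKM, then 445 and 115 FPKM. This run differs from the one on chromosome 20 in that all 3 genes had their lower dark level in the red experiment. Strand was not marked in the labels' protocols, so reads of genes that lie this close may not be told apart.

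Of the other runs, CMN181C and CMN182C share 1 locus on chromosome 14 at 456715 to 459269, so their reads may not be separable, and CMN183C follows at 461399 to 461911. CMN181C had 376 and 92.3 FPKM, then 511 and 98.5 FPKM. CMN182C had 124 and 47.2 FPKM, then 140 and 33.3 FPKM. Its q was 0.146 under blue and 0.0274 under red light in the authors' deposited table. CMN183C was much lower under blue than under red light, at 426 and 22.9 FPKM against 788 and 316 FPKM. Pairs were formed by CMJ049C and CMJ050C, CMK009C and CMK010C, CMO184C and CMO185C, CMS093C and CMS095C, and CMT088C and CMT089C. The pair on chromosome 11 is uneven. CMK009C had 276 and 95.7 FPKM under the blue conditions and 330 and 83.2 FPKM under the red ones, a 2.88-fold loss under blue light beside the 186-fold loss of CMK010C. CMT089C, with 244 and 12.1 FPKM and then 441 and 124 FPKM, likewise lost 20.1-fold under blue light where CMT088C, with 103 and 42.9 FPKM, lost 2.39-fold.

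CMJ049C and CMJ050C on chromosome 10 were closer to each other. CMJ049C had 177 and 43.2 FPKM, then 303 and 102 FPKM, and CMJ050C had 227 and 84.0 FPKM, then 342 and 132 FPKM. CMS093C and CMS095C on chromosome 19 have 1 RefSeq gene between them. CMS093C had the larger ratio under red light, -2.32 against -1.43 under blue light, and CMS095C under blue light, -2.80 against -1.46.

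The genes beside members were counted too. Of 231 tested non-members in the locus next to a member, 39 fell under blue light (16.9%) and 62 under red light (26.8%) in the authors' deposited table. For the other 3967 non-members the shares were 16.2% and 24.7%. Their median log2 ratios were 0.00 and -0.29, against 0.02 and -0.21 elsewhere. These shares have no test.

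Members had longer loci than other genes. Their median span was 1928 bp, against 1308 bp for the nuclear genes over the dark floor, and 1888 bp without loci shared by several IDs. Only 9.46% of members spanned less than 1000 bp, beside 33.5% of those nuclear genes. Sorted into 4 classes of equal size by span, the nuclear genes over the floor held 10 members in the shortest class, then 24, 45 and 69 in the longest. These are 0.981%, 2.37%, 4.43% and 6.80% of the genes of each class.

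The conditions of the rule were also counted one at a time. In the shortest class 10.3% of genes met the bound under blue light and in the longest 9.56%. Under red light the shares were 3.24% and 26.4%. Within the set, Spearman's rho between span and ratio was 0.08 under blue and -0.38 under red light across the 148 genes, and it was -0.00119 and -0.32 across all nuclear genes tested. The median red ratio of members ran from -1.40 in the shortest class to -1.80 in the longest, and the loss was larger under red than under blue light in 3 of the 10 shortest and 38 of the 69 longest. Span thus moved with the red ratio among members as it did among all nuclear genes, and its part in the choice of these genes beyond these values was not tested.

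**Figure D5:**
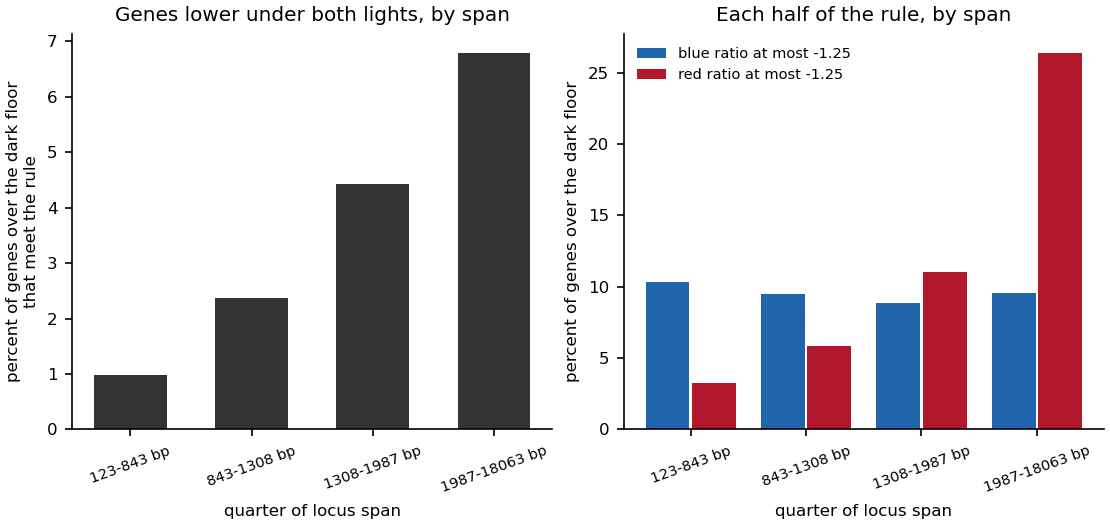
Left, percent of the nuclear genes over the dark floor that meet the rule, in 4 classes of locus span of about equal size; right, percent that meet the bound under blue light (blue bars) and under red light (red bars) alone. The share of members climbs from 0.981% to 6.80%, the red bars climb from 3.24% to 26.4%, and the blue bars stay between 8.86% and 10.3%.

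The members that did not pass the authors' threshold were few. Under blue light these were 8 genes. Besides CMO184C, CMR337C, CMH216C, CMQ418C and CMN182C they were CMR454C, CML037C and CMS065C. CMR454C, on chromosome 18 at 1118270 to 1119478, was at 105 and 2.15 FPKM in the blue experiment and 244 and 79.5 FPKM in the red one. Its q was 0.0796 under blue light, although the ratio is 48.8-fold, and 0.00045 under red light in the authors' deposited table. CML037C, which shares its locus on chromosome 12 at 81690 to 83398 with another ID, had 86.5 and 34.9 FPKM, then 113 and 31.7 FPKM. Its q was 0.144 under blue and 0.00424 under red light in the authors' deposited table. Under red light 5 genes did not pass, CMO184C, CMO185C, CMP002C, CMM036C and CMS065C. CMM036C, at 219 and 58.8 FPKM and then 438 and 165 FPKM, had q = 0.161 there in the authors' deposited table. CMS065C, the only member under 300 bp with a locus of 280 bp on chromosome 19, had 74.97 and 30.6 FPKM, then 61.2 and 24.0 FPKM, and passed under neither light. The members that passed under neither are CMS065C and CMO184C, the shortest and the most abundant of the set.

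The rule cuts through a continuum. Over the dark floor, 388 genes (9.55%) met the bound under blue light and 472 (11.6%) under red light, so members are 38.1% of the first list and 31.4% of the second. Just inside the blue bound lay CMT088C at -1.26, CMQ301C at -1.26, CMM236C at -1.29 and CMM206C at -1.29 on the log2 scale. Just outside it were CMF017C, at 613 and 258 FPKM, CMH023C, at 179 and 75.6 FPKM, CMH282C, at 70.2 and 29.6 FPKM, and CML036C, at 96.5 and 40.7 FPKM. At the red bound CMA068C at -1.26, CMI157C at -1.28, CMN279C at -1.28 and CMQ418C at -1.28 were the last inside. CMP110C, at 752 and 317 FPKM in the red experiment, CMF092C at -1.24, CMM179C at -1.23 and CMH268C at -1.23 were the first outside. CMF092C, at 643 and 15.3 FPKM in the blue experiment, missed only on the red side. At the dark floor the gap was wide, with CMM233C at 32.4 FPKM and CMP358C at 33.5 FPKM as the lowest inside, followed by CMK079C at 45.4 FPKM and CMI052C at 46.2 FPKM. Outside it CMB136C reached 17.6 FPKM, CMO218C 12.8 FPKM, CMR431C 10.9 FPKM and CMK006C 6.74 FPKM.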

How the data were processed

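Per the labels' protocols, TruSeq libraries of oligo(dT)-selected RNA were read on a MiSeq in 75 bp pairs. Cuffdiff, TopHat, TopHat2 2.0.5, Trimmomatic 0.32 and FastQC 0.11.5 are listed in the submitters' processing notes, with no role. Neither build nor annotation was given in the sources used here. The authors deposited FPKM with the 2 replicates of each condition combined, and their own p-value and q-value per comparison. The set of tests behind the q-values is not given. Depth per library is unknown, and no test on libraries could be made, so the authors' q-value under 0.05 was used. The labels do not state separate cultures, so p-values measure only the spread between these samples, which may be technical.

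Log2 ratios were computed again from the FPKM with no pseudocount. Differences between dark controls and between lit cells are log2 differences with no test. Starts in the table count from 0, as 50.9% of nuclear loci have an end minus start that is a multiple of 3 and 2.00% have this after adding 1; printed starts are raised by 1. Neighbours were read from the order of listed loci. The named genes are the 10 members with the largest weaker fall, the 10 with the highest mean dark FPKM, the 4 furthest apart each way between the lights and between the dark controls, those not past the threshold, those in runs and those at the bounds of the rule. IDs of equal RefSeq length, and values without CMO184C, were added after seeing the data. The members and all lists were chosen with earlier results of these data known. The planned lists by gene annotation, promoter motifs and protein similarity were not analysed here, since no product names or sequences were used. The code was checked on simulated data, using Python 3.11.15, numpy 2.4.6, pandas 2.3.3, scipy 1.17.1 and matplotlib 3.10.9.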

Additional observations from a re-analysis of the deposited data

How the results depend on the processing

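The number of genes depends on the bounds. A log2 bound of -1 gave 296 genes, of which 278 passed the authors' threshold under blue light, 287 under red light and 274 under both. A bound of -1.5 gave 71, of which 69, 68 and 67 passed. Ratios centred on the nuclear medians gave 92, of which 88, 89 and 86 passed. With these bounds the median blue ratio was -1.43, -2.24 and -1.97 on the log2 scale, and the median red ratio was -1.44 and -1.99 with the first 2 of them. The median difference between the lit conditions was 0.72 with the bound of -1 and 1.01 with that of -1.5, and that between the dark controls was 0.44 after centring. Counts stayed within 1.5 times and medians within 0.1 log2 units with a dark floor of 10 or 50 FPKM, a pseudocount of 1 FPKM, short and shared loci left out, and, for the counts of genes past the threshold, a q-value under 0.01. No paired analysis was possible because the deposited table holds 1 combined value per condition, and for the same reason no replicate could be left out. Unknown depth limits the values of a few FPKM under blue light most.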

Other observations

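A further 5 nuclear genes had at least 20 FPKM in both dark controls and were listed at 0 under blue light, where the rule asks for a value above 0. CMN051C, on chromosome 14 at 122300 to 122978, was at 324 FPKM dark and is listed at 0 under blue light, and it went from 347 to 58.8 FPKM under red light, with q = 0.00045 for both in the authors' deposited table. CMB089C, on chromosome 2 at 253758 to 254580, was at 233 FPKM dark and is listed at 0 under blue light, and it went from 476 to 135 FPKM under red light with the same q-values. CMR408C, at 51.04 FPKM in the blue-experiment dark control and 64.2 and 23.5 FPKM in the red one, is the listed locus just before CMR409C on chromosome 18. In the authors' deposited table its q was 0.00045 under blue and 0.113 under red light. CMJ290C and CMR096C were at 26.6 and 35.7 FPKM in the dark, and their q-values under blue light, 0.054 and 0.0575 in the authors' deposited table, miss the threshold. CMR096C also misses the rule on the red side, at 22.5 and 18.6 FPKM with a q of 0.932 in the authors' deposited table. A listed 0 may be a failed estimate rather than a level.

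Spread evenly over the 30 min of light, the FPKM of the median member halved once every 16.3 min under blue light and once every 18.1 min under red light. Leaving aside CMH216C and CMQ418C, whose single values are uncertain, the shortest such times were 3.98 min for CMK010C, 4.01 min for CMG099C and 4.05 min for CMK115C under blue light. Under red light the shortest was 8.40 min, for CMA021C. These are restatements of the ratios on a relative scale, not measured decay rates.

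Members lay among the outermost 5 listed loci at a chromosome end in 8 cases, of 139 genes over the dark floor in such places. Over all 4063 nuclear genes above that floor, 148 were members (3.64%), and the difference was not tested. The 8 at chromosome ends are CMC002C, CMI013C, CMK009C, CMK010C, CMP002C, CMP358C, CMR500C and CMT009C. CMC002C, the first listed locus of chromosome 3, was at 998 FPKM dark and 61.5 FPKM after blue light, and at 609 and 173 FPKM in the red experiment.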
